A study of Mus musculus with 10 samples.

Results

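The 33 genes described here encode the enzymes of glycolysis and genes that respond to low oxygen, and each was found by matching its symbol to the gene names of the deposited count table. All 33 symbols were present among the 55385 genes of the table, in 34 entries because Aldoa was listed under 2 identifiers. The glycolytic enzymes numbered 17, and the other 16 members were transporters, regulators and targets of the hypoxia response. RNA was measured in 10 libraries of mouse cells derived from an ovarian tumour in which Arid1a and Pik3ca were both mutated. The sample titles write the line as APV245, the design text as APC245. In 5 libraries the label was IL6 shRNA1, a viral short hairpin RNA against Il6, with the genotype given as IL6 knockdown. In the other 5 it was a non-mammalian control shRNA in pLKO.1-puro, with the genotype given as WT (control shRNA). All 10 were labelled as untreated tumour cells of batch 1. The sample labels describe growth in DMEM, whereas the design text speaks of a subcutaneous tumour model. All libraries therefore share a single line and its mutations, and no label says that replicates came from separate cultures or animals, so p-values measure only the spread between these samples, which may be technical.

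Glycolysis turns glucose into pyruvate in the cytosol, and lactate dehydrogenase then makes lactate. Several steps have more than 1 form of the enzyme, encoded by separate genes that dominate in liver, muscle, brain or many tissues. When oxygen is low, the prolyl hydroxylases no longer mark HIF-1alpha for destruction, and the factor raises transcription of glucose transporters, glycolytic enzymes and genes that limit mitochondrial oxidation. In solid tumours many of these genes are therefore used as a readout of poor oxygen supply.

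The libraries labelled IL6 shRNA1 held 17905397 to 19934278 counts and the control libraries 18224751 to 22682346. Il6 itself was not lower where the label says it should be. It stood at 1.07, 1.83, 2.18, 1.80 and 1.75 counts scaled to a common library size (CPM) in libraries 1 to 5 labelled IL6 shRNA1 and at 1.61, 0.438, 2.06, 1.34 and 0.830 CPM in control libraries 1 to 5 (log2 fold change 0.44 ± 0.36 SE, adjusted p = 0.436). Il6 was counted at only 9 to 48 raw counts per library, and the 95% interval ran from -0.36 to 1.24. With a score of leukocyte markers as a covariate its log2 fold change was -0.68 (adjusted p = 0.435), the only change of sign in 24 alternative fits. The main fit thus showed no fall, but its interval includes a small fall as well as a rise. With so few counts the check does not decide whether the label holds, and the groups are called by their labels throughout. Arid1a and Pik3ca mRNA were not called either, at 81.7 against 87.5 and 163 against 188 CPM. Without library 1 labelled IL6 shRNA1, Pik3ca was called lower (-0.24, adjusted p = 0.0362).

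Markers of other cells differed between libraries. The 14 skeletal muscle markers summed to 45.8 to 13354 CPM, with the top value in library 5 labelled IL6 shRNA1, and none of the 13 tested was called. Of 26 tested leukocyte markers 15 were higher in the libraries labelled IL6 shRNA1, with sums of 3889 to 7773 against 1439 to 4121 CPM, and no muscle or leukocyte marker was at 0 in all libraries. Endothelial markers summed to 323 to 678 against 256 to 398 CPM with none called, and fibroblast and pericyte markers to 35061 to 67180 against 34327 to 74063 CPM with 2 lower. Epithelial and Mullerian markers summed to 370 to 398 against 165 to 374 CPM, with 1 higher. Fat markers reached 75.7 CPM, with 1 lower, skin markers 925 CPM and blood markers 9.63 CPM, with none called in the last 2 lists. An earlier analysis of these data put library 5 labelled IL6 shRNA1 and control libraries 2 and 5 farthest from the rest, and library 4 labelled IL6 shRNA1 had low values for most hypoxia genes. In bulk RNA, fewer cells of a type and less RNA per cell cannot be told apart.

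Most of the 33 genes did not differ between the groups beyond the spread of the libraries. A gene was called where edgeR's quasi-likelihood test gave a Benjamini-Hochberg adjusted p under 0.05 over all 15064 genes tested. Of the 32 members tested, 3 were lower in the libraries labelled IL6 shRNA1, 0 were higher and 29 were not called, whereas 12 (37.5%) had an unadjusted p under 0.05. That share was 31.2% over all genes. Over all genes, 6.16% were lower and 5.62% higher. The share of members called lower was 9.38%, and their median log2 fold change was -0.08 beside -0.01 for all genes. With DESeq2, 5 members were lower and 2 higher, while 3027 of the 15064 genes tested were called in either direction.

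All 3 genes that fell were glycolytic enzymes. Among the 16 enzymes tested 3 were lower, 0 higher and 13 not called, with a median log2 fold change of -0.09. For 4 of the 16, the groups did not overlap, against 10.9% of all genes. The other 16 members gave no call and no gene without overlap, with a median of -0.08. The fold changes of all tested members are plotted with their intervals.

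**Figure D1:**
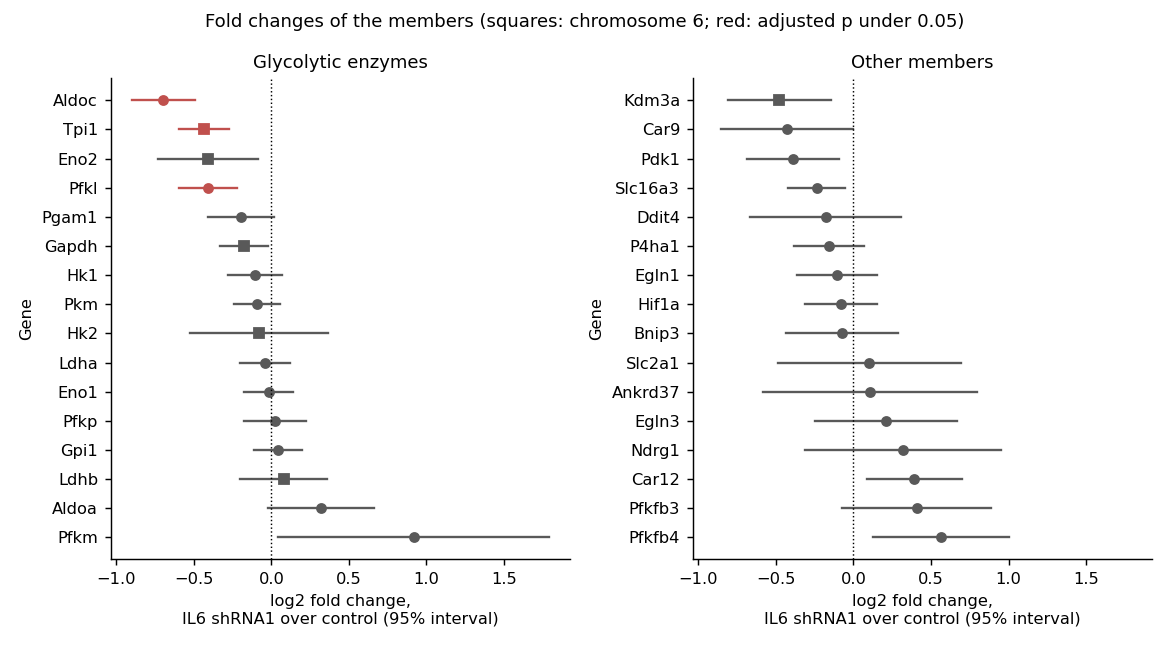
Log2 fold change of each tested member (libraries labelled IL6 shRNA1 over control, x axis) with its 95% confidence interval, for glycolytic enzymes at left and other members at right; squares mark chromosome 6 and red marks an adjusted p under 0.05. The 3 red points, Aldoc, Tpi1 and Pfkl, lie between -0.70 and -0.41, and Pfkm at 0.92 has the widest interval.

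Aldoc encodes aldolase C, the form best known from brain, which splits fructose bisphosphate (ENSMUSG00000017390.15, chromosome 11, 78322968 to 78327781). It was counted at 20.9, 20.1, 19.5, 15.5 and 16.2 CPM in libraries 1 to 5 labelled IL6 shRNA1 and at 28.7, 31.1, 29.4, 30.2 and 30.3 CPM in the control libraries. The groups were well apart, with means of 18.5 ± 2.43 and 29.9 ± 0.928 CPM (SD, n = 5 each). Aldoc therefore fell by 38.4% (log2 fold change -0.70 ± 0.09 SE, edgeR adjusted p = 0.00228), from raw counts of 306 to 685 per library. The call held with each library left out in turn, at -0.73 to -0.63. With a leukocyte score, the mean of the centred log2 CPM of the markers, as a covariate it did not (-0.57, adjusted p = 0.0867). The score averaged 0.51 in the libraries labelled IL6 shRNA1 and -0.51 in the controls. Score and group are thus largely confounded, and a call lost in any fit with this score does not decide between them.

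Aldoa encodes aldolase A, the abundant form in muscle and many tissues, and it did not follow Aldoc. Its main entry stood at 1047, 1329, 1225, 1162 and 1982 CPM against 959, 1033, 1168, 1197 and 1049 CPM. Only library 5 labelled IL6 shRNA1 lay far above the rest, and the difference was not called (0.32 ± 0.16 SE, adjusted p = 0.186). The second entry under this symbol, which lies just upstream of the first, held 28 to 144 counts a library and was not called. In FPKM, which scales counts by gene length and column total, Aldoc made up 1.28% ± 0.37 of the summed aldolase A and C signal against 2.43% ± 0.21 in the controls, with ranges of 0.724% to 1.75% and 2.20% to 2.62%. Both a lower Aldoc and, in library 5, a higher Aldoa enter that share.

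Pfkl encodes the liver form of phosphofructokinase, which commits sugar to glycolysis (ENSMUSG00000020277.10, chromosome 10, 77986947 to 78010083). Its levels were 230, 274, 257, 241 and 207 CPM in the libraries labelled IL6 shRNA1 and 290, 298, 333, 352 and 331 CPM in the controls. No library of the first group reached the lowest control, and the means of 242 ± 25.5 and 321 ± 26.2 CPM (SD, n = 5 each) differed at an adjusted p of 0.0154 (-0.41 ± 0.09 SE). The call was lost without the 3 farthest libraries (-0.38, adjusted p = 0.0978) and with the leukocyte score (-0.42, 0.224) or the muscle score (-0.42, 0.0502) as a covariate.

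The other forms of phosphofructokinase did not fall. Pfkm, the muscle form, stood at 46.5, 101, 61.9, 91.1 and 246 CPM against 54.7, 56.5, 68.2, 59.0 and 50.4 CPM. It was high in libraries 2, 4 and above all 5 labelled IL6 shRNA1, and low in library 1, so that a log2 fold change of 0.92 ± 0.39 SE was not called (adjusted p = 0.144). Pfkp, the platelet form, averaged 113 ± 9.88 against 111 ± 13.3 CPM (0.02 ± 0.09 SE). In FPKM, Pfkl made up 61.0%, 51.2%, 58.8%, 51.1% and 27.2% of the 3 forms in the libraries labelled IL6 shRNA1 and 63.6% to 68.4% in the controls. Pfkm made up 24.6% to 64.7% against 20.8% to 26.0%.

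Pfkm and Aldoa were highest in the library with the highest sum of muscle markers, and no correlation over the libraries was computed. Libraries 1 to 5 labelled IL6 shRNA1 had marker sums of 86.5, 2971, 1403, 2214 and 13354 CPM, and the control libraries 292, 106, 1485, 608 and 45.8 CPM. The muscle-type enzymes outside the 33, named after their values were seen, had the same top library. Eno3, the muscle enolase, reached 359 CPM there against 8.5 to 102 CPM in the rest of its group and 11.9 to 50.8 CPM in the controls. Pgam2, the muscle phosphoglycerate mutase, reached 118 CPM there, and 1.6 to 25.5 CPM elsewhere in its group. With the muscle score as a covariate the fold change of Pfkm was 0.12 and that of Aldoa 0.07, and neither was called (adjusted p = 0.876 and 0.823). Under the same covariate Aldoc was lower (-0.62, adjusted p = 0.0093) and Pfkl was not called (-0.42, 0.0502). The marker sums of libraries 1 and 3 labelled IL6 shRNA1 lay inside the control range, and those of libraries 2, 4 and 5 above it. Whether muscle RNA underlies any of these differences was not tested. The levels of Pfkm, Aldoa, Pfkl and Aldoc are plotted against the marker sum.

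**Figure D2:**
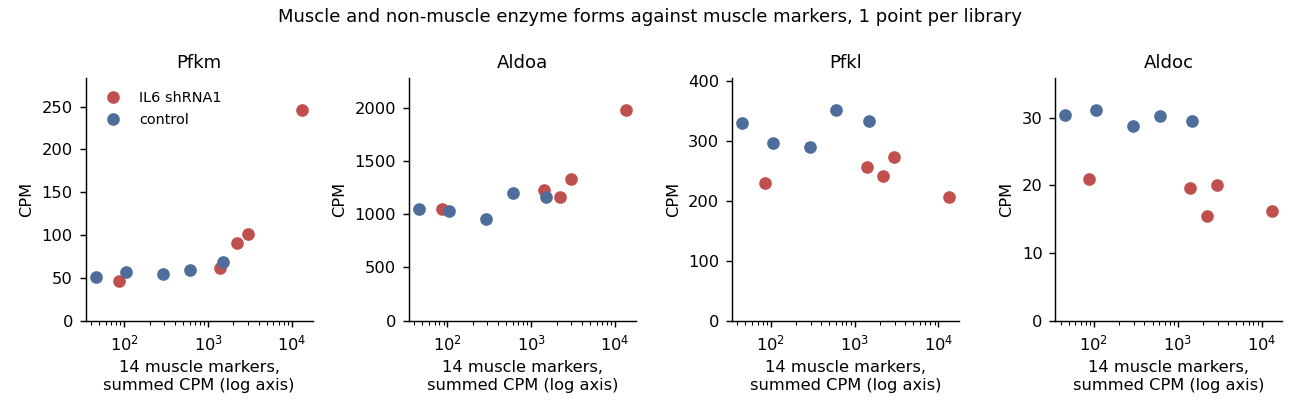
Level of Pfkm, Aldoa, Pfkl and Aldoc (y axes, CPM) against the summed CPM of 14 skeletal muscle markers (x axis, log scale), with 1 point per library, red for IL6 shRNA1 and blue for control. Pfkm and Aldoa are highest in the library with the highest marker sum (13354 CPM), while Pfkl and Aldoc of the red points lie below all blue points.

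Chromosome 6 carries 6 of the 33 genes, Hk2, Tpi1, Gapdh, Eno2, Ldhb and Kdm3a, and its genes as a whole were lower in the libraries labelled IL6 shRNA1. Of its 797 tested genes 27.1% were lower (216 genes) and 21 were higher, with a median log2 fold change of -0.23. The level of the chromosome in a library, the median over its genes of log2 CPM minus the gene mean, was -0.17 to -0.06 in the libraries labelled IL6 shRNA1 and 0.08 to 0.17 in the controls. The difference of -0.22 gave an exact two-sided permutation p of 0.0079, the smallest that 5 against 5 allows, and 0.04 after Benjamini-Hochberg adjustment over 20 chromosomes. Chromosomes 1, 10 and 15 gave the same p, with differences of 0.32, -0.05 and -0.06. Chromosome 19, where Pgam1 lies, differed by -0.11 at an exact permutation p of 0.024 (0.095 after adjustment). Pfkl lies on chromosome 10 and remained called relative to it (-0.36, adjusted p = 0.0311). Of the 6 members, 1 was lower, 5 had a negative fold change and their median was -0.29. The 26 tested members on other chromosomes had a median of -0.06, with 2 lower.

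**Figure D3:**
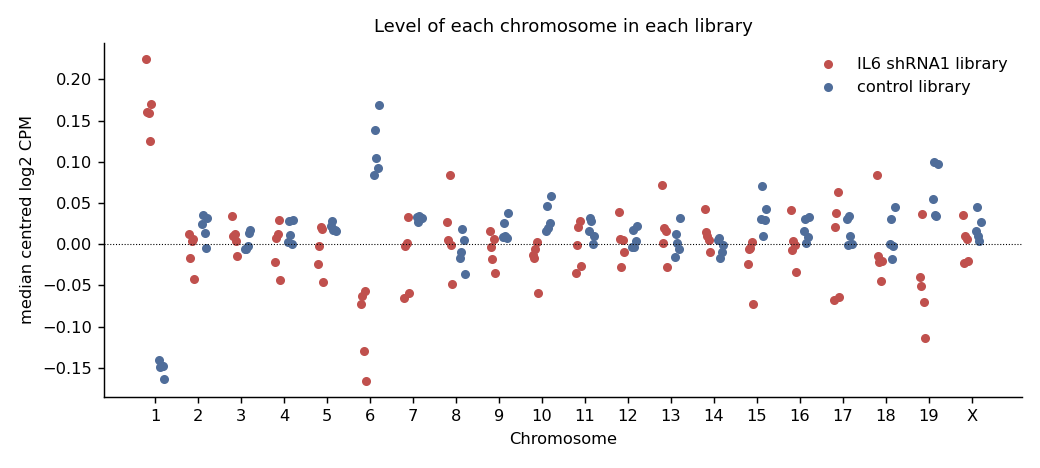
Level of each chromosome in each library (y axis, median over its tested genes of log2 CPM minus the gene mean), red for IL6 shRNA1 and blue for control. On chromosome 6 all red points (-0.17 to -0.06) lie below all blue points (0.08 to 0.17), and on chromosome 1 they lie above.

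Tpi1 encodes triosephosphate isomerase, which interconverts the products of aldolase (ENSMUSG00000023456.15, chromosome 6, 124810586 to 124814296). It was counted at 762, 821, 790, 732 and 734 CPM in the libraries labelled IL6 shRNA1 and at 929, 1088, 1021, 984 and 1160 CPM in the controls. All libraries of the first group were below all controls, with means of 768 ± 38.3 and 1036 ± 90.1 CPM (SD, n = 5 each), and Tpi1 fell by 25.9% (-0.43 ± 0.07 SE, adjusted p = 0.00613). Of the 20 tested genes nearest to it, 10 on each side, 5 were lower and 17 had a negative fold change, with a median of -0.32. With the level of each gene's own chromosome as an offset the fold change of Tpi1 was -0.22 and was not called (adjusted p = 0.0638). It was also not called without the 3 farthest libraries (-0.33, 0.0767) or with the leukocyte score as a covariate (-0.31, 0.268).

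Eno2, the neuronal form of enolase, lies beside Tpi1 (chromosome 6, 124760053 to 124769673). It stood at 67.0, 67.6, 48.2, 38.3 and 56.0 CPM against 68.8, 69.1, 71.9, 71.6 and 87.0 CPM. The groups touched without overlapping, and the difference of -0.41 ± 0.15 SE was not called (adjusted p = 0.0882). Relative to its chromosome it was -0.19 (adjusted p = 0.403). Eno1, the widespread form, stood at 1573 ± 135 against 1592 ± 66.3 CPM (-0.02 ± 0.07 SE), within the spread between libraries. In FPKM, Eno2 made up 2.97% to 4.48% of Eno1 and Eno2 together in the libraries labelled IL6 shRNA1 and 4.57% to 5.65% in the controls.

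Gapdh, the enzyme that makes the first NADH of the pathway and a common reference gene, lies on chromosome 6 as well (125161715 to 125166467). It was measured at 2976, 2983, 2872, 2569 and 2767 CPM against 2877, 3368, 3228, 3288 and 3269 CPM. Apart from control library 1 all controls were above all libraries of the other group. The difference was small and not called (-0.18 ± 0.07 SE, adjusted p = 0.115), and relative to its chromosome it was 0.04. Hk2, the inducible hexokinase, ranged from 66.7 to 156 CPM against 96.4 to 133 CPM (-0.08 ± 0.20 SE), and turned to 0.15 relative to chromosome 6. Ldhb, the heart form of lactate dehydrogenase, was at 21.0 ± 2.54 against 19.9 ± 3.42 CPM, the only member of this chromosome with a positive value (0.08 ± 0.13 SE). Among the 20 nearest tested genes, 6 were lower around Eno2, 4 around Gapdh, 7 around Kdm3a, 4 around Ldhb and 1 around Hk2. Over the whole of chromosome 6 the share was 27.1%, and the genes around Eno2 are largely those around Tpi1.

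None of the remaining enzymes was called. Per gene length, Gapdh was the most abundant of the 33, with 686 ± 36.8 against 773 ± 46.7 FPKM. Ldha, which makes lactate from pyruvate, stood at 416 ± 41.7 against 426 ± 30.0 FPKM, and Pkm, pyruvate kinase, at 380 ± 27.6 against 404 ± 16 FPKM. These levels overlapped between the groups, with log2 fold changes of -0.04 ± 0.07 SE for Ldha and -0.09 ± 0.07 SE for Pkm on the count scale. Pgam1, the widespread phosphoglycerate mutase, had a log2 fold change of -0.20 ± 0.10 SE (adjusted p = 0.192). Gpi1, glucose phosphate isomerase, had 0.04 ± 0.07 SE and Hk1, the housekeeping hexokinase, -0.10 ± 0.08 SE. Their 95% intervals bound any difference: -0.20 to 0.12 for Ldha, -0.24 to 0.06 for Pkm, -0.18 to 0.14 for Eno1 and -0.11 to 0.20 for Gpi1. The 3 enzymes that fell thus comprised 1 minor form, Aldoc at 5.65 against 9.15 FPKM, and 2 well expressed ones, Pfkl at 36.3 against 48.0 FPKM and Tpi1 at 279 against 375 FPKM.

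Pgk1, phosphoglycerate kinase, was listed at 0 in all 10 libraries and could not be tested. It lies on chromosome X (106187100 to 106203699), where 574 of 933 protein-coding genes (61.5%) were listed at 0 in every library. Within 5 Mb of Pgk1 the number was 65 of 76 (85.5%), whereas on chromosomes 1 to 19 it was 3536 of 20739 (17.1%). The zeros included Rps4x and Ogt, genes that nearly every cell uses, while Hprt and G6pdx on the same chromosome held 1258 to 1993 and 913 to 1359 counts. These X genes were chosen after their values were seen. The processed pseudogene Pgk1-rs7 on chromosome 12 held 215 to 288 counts in the libraries labelled IL6 shRNA1 and 242 to 328 in the controls. Other copies drew few counts over all libraries, 714 for Pgam1-ps2, 389 for Eno1b, 108 for Tpi-rs11 and 78 for Ldha-ps2. How reads that fit several of these genes were handled is not given in the sources used here.

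**Figure D4:**
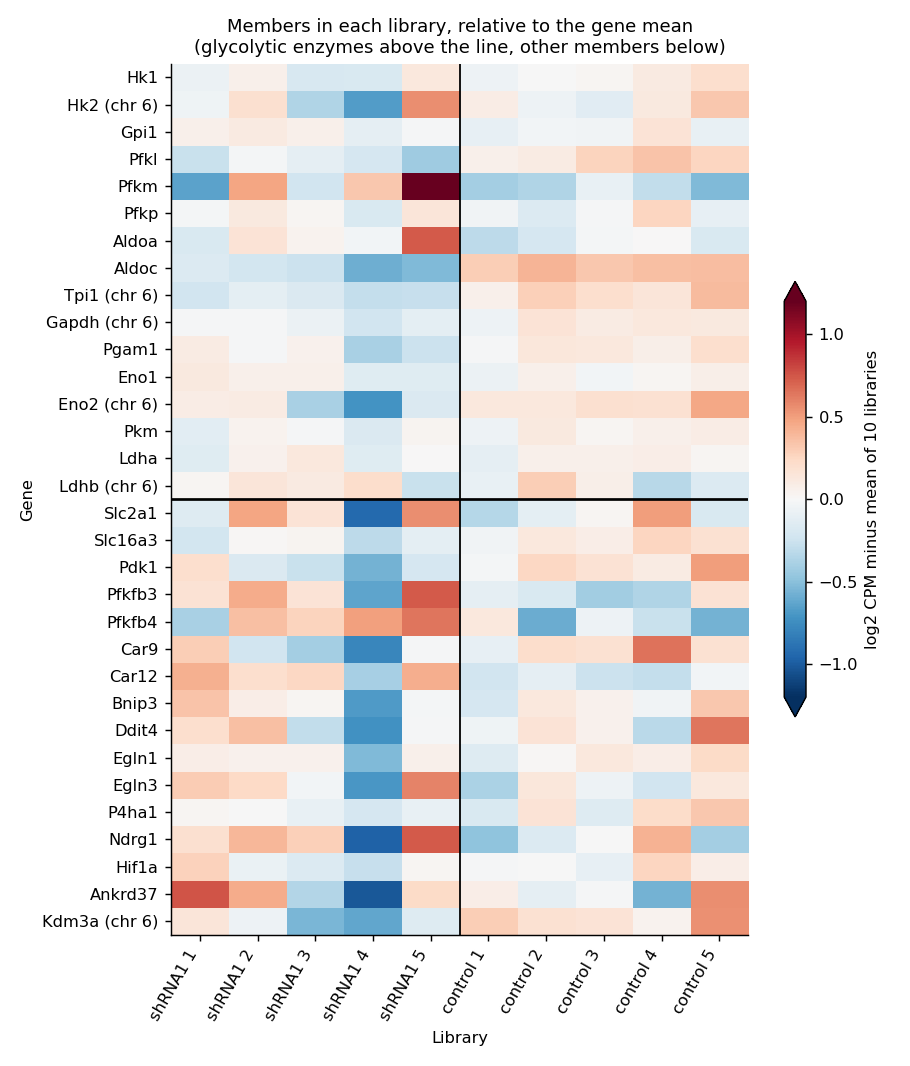
Each tested member in each library as log2 CPM minus the mean of the 10 libraries (colour, blue low and red high), glycolytic enzymes above the line and other members below it. Aldoc, Pfkl and Tpi1 are blue in all 5 libraries labelled IL6 shRNA1 or close to 0 and red in the controls, Pfkm is darkest in library 5, and library 4 is blue in most genes below the line.

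None of the 16 other members was called, and they varied more between libraries of a group than the enzymes did. Their median coefficient of variation was 23.9% in the libraries labelled IL6 shRNA1 and 15.5% in the controls. The enzymes had 10.2% and 7.89%, and all tested genes 15% and 12.6%. Of the 16, 7 had a positive and 9 a negative fold change, and 6 (37.5%) had an unadjusted p under 0.05, beside 31.2% of all genes.

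The sensors and the factor itself did not pass the test. Hif1a, the oxygen-regulated subunit of HIF-1, stood at 240 ± 36.4 against 254 ± 24.4 CPM (-0.08 ± 0.11 SE, 95% interval -0.31 to 0.15). Egln1, the main prolyl hydroxylase, was at 216 ± 34.5 against 232 ± 22.3 CPM (-0.11 ± 0.12 SE). Egln3, the hydroxylase that is itself induced by hypoxia, was at 47.5 ± 14.3 against 41.0 ± 6.33 CPM (0.21 ± 0.21 SE). Their adjusted p ran from 0.524 to 0.639, and the groups overlapped for all 3.

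Transport of fuel and acid gave differences in both directions, none called. Slc2a1, the glucose transporter GLUT1, was at 207 ± 73.9 against 193 ± 47.0 CPM (0.10 ± 0.27 SE). Slc16a3, the lactate exporter MCT4, was at 311, 366, 369, 292 and 334 CPM against 350, 394, 383, 432 and 412 CPM, and the difference of -0.24 ± 0.08 SE missed the threshold (adjusted p = 0.0869). The 2 membrane carbonic anhydrases, which handle acid outside the cell, pointed in opposite directions. Car9 stood at 44.5, 30.8, 27.3, 21.0 and 35.8 CPM against 33.7, 42.0, 40.9, 56.9 and 40.9 CPM (-0.43 ± 0.19 SE, adjusted p = 0.16). Car12 stood at 166, 142, 147, 93.6 and 167 CPM against 105, 114, 104, 101 and 121 CPM (0.39 ± 0.14 SE, adjusted p = 0.0845). All libraries labelled IL6 shRNA1 but the fourth exceeded all controls in Car12, and without that library it was called higher (0.53, adjusted p = 0.00681).

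The kinases that steer glycolytic flux also pointed both ways. Pdk1, which limits the oxidation of pyruvate in mitochondria, was at 156, 121, 113, 91.9 and 118 CPM against 134, 161, 153, 145 and 192 CPM (-0.39 ± 0.14 SE, adjusted p = 0.0792). Pfkfb3 makes the activator of phosphofructokinase and was at 150, 181, 149, 85.7 and 221 CPM against 123, 117, 99.4, 104 and 149 CPM (0.41 ± 0.22 SE, adjusted p = 0.225). Pfkfb4, a related form, was at 9.89, 16.7, 15.7, 18.3 and 20.3 CPM against 14.2, 8.57, 12.5, 10.8 and 8.72 CPM (0.56 ± 0.20 SE, adjusted p = 0.0854). The groups overlapped for all 3. Leaving out library 1 labelled IL6 shRNA1 gave calls for Pdk1 (-0.49, adjusted p = 0.0202) and Pfkfb4 (0.71, 0.0177), and leaving out library 4 gave a call for Pfkfb3 (0.58, 0.0478). DESeq2 called Pdk1 lower (adjusted p = 0.0485), and Pfkfb4 (0.0405) and Car12 (0.0378) higher. With the leukocyte score as a covariate Pfkfb4 was at -0.06.

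Kdm3a, a histone demethylase induced by HIF, lies on chromosome 6 (71588972 to 71632990) and had the lowest adjusted p of the uncalled members. Its levels were 77.6, 67.0, 47.9, 45.3 and 62.7 CPM against 86.1, 79.6, 78.5, 72.2 and 102 CPM. Library 1 labelled IL6 shRNA1 was the only one of its group above a control library, and the difference was -0.48 ± 0.15 SE (adjusted p = 0.0626). Without that library Kdm3a was called lower (-0.57, adjusted p = 0.0238), as it was by DESeq2 (-0.46, 0.0284), with column totals (0.0413) and in both FPKM fits (0.0390 and 0.0409). Relative to chromosome 6 its fold change was -0.26 (adjusted p = 0.267), and with the muscle score -0.34 (0.263). The other targets were Bnip3, a mitophagy receptor (-0.08 ± 0.16 SE), Ddit4, an mTOR inhibitor (-0.18 ± 0.22 SE), P4ha1, a collagen prolyl hydroxylase subunit (-0.16 ± 0.10 SE), Ndrg1, a stress-induced gene (0.32 ± 0.28 SE), and Ankrd37 (0.11 ± 0.31 SE).

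Library 4 labelled IL6 shRNA1 was low for most members of the hypoxia response. It was the lowest of all 10 libraries, and so of its group, for 15 of the 16 other members, the exception being Pfkfb4, and for 11 of the 16 enzymes. Over all 15064 genes tested it was the lowest of the 10 for 1617, and the lowest of its group for 18.1%. Against the other libraries of its group its median log2 difference was -0.71 for the other members, -0.17 for the enzymes and 0.01 for all genes. Slc2a1 stood at 100 CPM in it and at 172 to 282 CPM in the rest of the group. For Ndrg1 the values were 37.6 CPM against 84.7 to 123 CPM, and for Ankrd37 4.67 against 7.48 to 16.2 CPM. These genes take up glucose, answer to stress or have other roles. Egln3 was at 26.5 against 42.1 to 64.9 CPM, and Pfkfb3 at 85.7 against 149 to 221 CPM. Of the 68 tested genes of the wider list described last, that library was the lowest of the 10 for 28 and the highest for 3, with a median log2 difference from its group of -0.23. Vegfa, the vascular growth factor, was at 82.8 against 175 to 237 CPM, and Adm, which encodes adrenomedullin, at 3.26 against 12.3 to 22.9 CPM. Angptl4, a secreted lipase inhibitor that HIF also induces, was at 44.1 CPM in that library against 25.0 to 43.0 CPM in the rest of the group. In that library the leukocyte markers summed to 5937 CPM and the muscle markers to 2214 CPM, both inside the range of its group, and its total of 19596138 counts was inside the range of all libraries. The cause of the low values in that library was not tested. Among the controls, library 1 was the lowest for 21 of the 32 members (65.6%) and library 5 the highest for 15 (46.9%). Over all genes tested these shares were 17.6% and 25.3%. This description of libraries, and the choice of the genes plotted for it, were made after the values were seen.

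**Figure D5:**
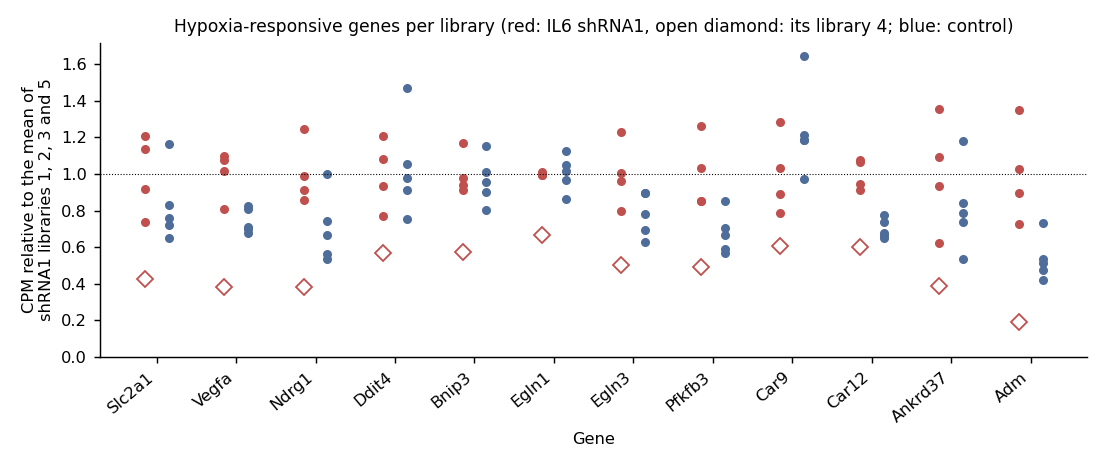
Level of 12 hypoxia-responsive genes, chosen for their low values in library 4, in each library relative to the mean of libraries 1, 2, 3 and 5 labelled IL6 shRNA1 (y axis, ratio of CPM, dotted line at that mean), red for IL6 shRNA1 with an open diamond for library 4, blue for control. The diamond is the lowest point for each of the 12 genes, for example 100 CPM for Slc2a1 where the other 4 had 172 to 282 CPM.

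The promoters of the members were searched for ACGTG, the core letters that HIF binds. The RefSeq promoter table (GRCm38.p6, 250 bases before to 50 after each gene start) held 32 of the 33 members, not Ndrg1. On either strand ACGTG was found in 11 of 15 windows of the other members (73.3%), in 7 of 17 windows of the enzymes (41.2%) and in 19.6% of all 32851 windows of the table. With GCGTG, the other form of the core, also counted, the shares were 93.3%, 64.7% and 43.8%. The motif was chosen with the values known, and a match describes letters, not binding. The other members were listed as genes of the hypoxia response, so a higher share among them was to be expected. For each member only the window nearest its annotated 5′ end was searched, whereas all windows of the table were counted. Whether the motif has to do with the low values in library 4 was not tested. The 10 bases on each side of the match are shown in lower case and the core in capitals, each 5′ to 3′ on the strand that reads ACGTG, for 8 members that were low in library 4 and for Aldoc, the enzyme with the largest fall.
Slc2a1: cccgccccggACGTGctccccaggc
Pfkfb3: ccgcgccgtgACGTGccaagctgtg
Car9: gacgggctgtACGTGcatcggaaat
Bnip3: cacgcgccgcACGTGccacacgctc
Ddit4: aacgttgcgaACGTGcgcccggtgc
Egln1: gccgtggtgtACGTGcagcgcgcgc
Egln3: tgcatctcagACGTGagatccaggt
Ankrd37: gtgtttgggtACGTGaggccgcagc
Aldoc: ccgcagagctACGTGactccctggg
The matches lay 34 bases before the start of Slc2a1 (chr4:119108699-119108723, plus strand), 58 before that of Pfkfb3 (chr2:11553975-11553999, minus strand) and 16 before that of Car9 (chr4:43506998-43507022, minus strand). For Bnip3 the distance was 105 bases (chr7:138909599-138909623, minus strand), for Ddit4 185 bases (chr10:59951943-59951967, minus strand) and for Egln1 66 bases (chr8:124949308-124949332, minus strand). For Egln3 it was 227 bases (chr12:54204089-54204113, minus strand) and for Ankrd37 4 bases (chr8:45999842-45999866, minus strand). In Aldoc the match lay 29 bases after the start (chr11:78323090-78323114, minus strand). Bnip3 had a further match that overlaps this site on the other strand, and Ankrd37 another 239 bases before its start. Car12, Pdk1 and Kdm3a, which were also lowest in library 4, had no ACGTG in their windows, nor had Pfkl and Tpi1. The windows of Pdk1, Kdm3a and Pfkl did hold GCGTG, whereas those of Car12 and Tpi1 held neither form.

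A wider list of 79 further glycolysis and hypoxia genes was counted in the same way. Of its 68 tested genes 6 were lower, 1 was higher and 61 were not called, with a median log2 fold change of 0.02. The shares were 8.82% lower and 1.47% higher, beside 6.16% and 5.62% of all genes. Selenbp1, a selenium-binding methanethiol oxidase, stood at 8.39, 6.52, 6.55, 4.87 and 7.89 CPM against 13.5, 14.2, 11.2, 10.7 and 15 CPM, with no overlap (-0.92 ± 0.16 SE, adjusted p = 0.00714). Kdm4b, a histone demethylase, averaged 54.0 ± 7.82 against 78.0 ± 8.22 CPM (-0.53 ± 0.11 SE, adjusted p = 0.0138). Plod2, a collagen lysyl hydroxylase, averaged 498 ± 49.5 against 708 ± 113 CPM (-0.51 ± 0.11 SE, adjusted p = 0.0197). Narf fell by 0.43 on the log2 scale (adjusted p = 0.0132), Fam162a, a mitochondrial protein gene, by 0.30 (0.0421) and Vhl, the ubiquitin ligase subunit that binds hydroxylated HIF, by 0.41 (0.0424). Insig2, a regulator of sterol synthesis on chromosome 1, was higher (0.41, adjusted p = 0.0222).

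All 7 calls were lost without the 3 farthest libraries and with the leukocyte score. The omitted library 5 labelled IL6 shRNA1 had the highest leukocyte score (0.77). The omitted control libraries 2 and 5 had the lowest (-1.41 and -0.83). As the score also followed the group, these losses do not decide what underlies the calls. For Selenbp1, Narf and Kdm4b the adjusted p was 0.0745, 0.0872 and 0.101 without those libraries, and 0.209, 0.308 and 0.356 with the score. With the muscle score Selenbp1 was the only one of the 7 still called (0.0355), with Narf at 0.0634 and Kdm4b at 0.0635. Some calls were also lost when 1 library was left out. Plod2 was not called without control library 2 or 5 (adjusted p = 0.0522 and 0.0512). Insig2 was not called without library 2 or 5 labelled IL6 shRNA1 or without control library 2 or 5 (0.0521 to 0.0589). For Fam162a each omission but those of libraries 1 and 3 labelled IL6 shRNA1 ended the call (0.0504 to 0.10), and for Vhl those of libraries 2, 3, 4 and 5 labelled IL6 shRNA1 and of control libraries 2, 3 and 5 did (0.0528 to 0.0948). Relative to their chromosomes Vhl, on chromosome 6, was at -0.19 (adjusted p = 0.267) and Insig2 at 0.09 (0.553).

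Further partners of HIF and its classic targets were not called. Epas1, which encodes HIF-2alpha, had a log2 fold change of 0.25 ± 0.20 SE and Arnt, the shared partner subunit, -0.16 ± 0.10 SE. Slc2a3, the transporter GLUT3 on chromosome 6, had 0.26 ± 0.20 SE and Vegfa 0.24 ± 0.24 SE. Slc16a1, the lactate transporter MCT1, was at 108, 103, 104, 79.2 and 109 CPM against 73.4, 86.4, 72.4, 90.6 and 78.5 CPM (0.33 ± 0.10 SE, adjusted p = 0.0553). Only library 4 labelled IL6 shRNA1 fell within the control range of Slc16a1. Without it Slc16a1 (0.41, adjusted p = 0.0167) and Vegfa (0.44, 0.0336) were called higher, and without control library 4 Slc16a1 was too (0.37, 0.0467). With all libraries Slc16a1 was also called higher by DESeq2 (adjusted p = 0.0182), with column totals or upper-quartile factors (0.0401 and 0.0477), with both other filters (0.0420 and 0.0450) and in both FPKM fits (0.0412 and 0.0423).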

How the data were processed

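The authors deposited raw counts per gene, with no normalization, and FPKM values of the same genes, scaled by gene length and column total per the values in the files. The submitters' processing notes list featureCounts (Subread 1.6.4), the aligner STAR 2.7.0f, SAMtools 1.11, the read trimmer Trim Galore 0.6.6, FastQC 0.11.9, R 4.0.4 and the builds mm10 and GRCm38. How strand and multi-mapping reads were set, the annotation release and the FPKM tool are not stated there. Counts were fitted here in R 4.3.3 with edgeR 4.0.16 (filterByExpr by group, minimum count 10, TMM factors, quasi-likelihood test with robust=TRUE), with Benjamini-Hochberg adjustment over the 15064 genes kept. CPM are counts scaled with the TMM factors. Totals ran from 17905397 to 22682346 counts, and no 2 libraries were identical. The test was checked on simulated data. Chromosome levels were compared over all 252 regroupings. Alternatives were other scaling, filters and thresholds, DESeq2 1.42.0, voom in limma 3.58.1, the deposited FPKM, a block by sample number, omitted libraries, leukocyte score and own-chromosome level (scores and levels are the mean and the median of log2 CPM minus the gene mean). The muscle score was added after seeing the data, as was the strict reading of any change of sign as a reversal. Named were all members, Il6, Arid1a, Pik3ca, the called genes of the wider list, up to 8 by smallest p, and Vegfa, Epas1, Arnt, Vhl, Slc2a3 and Slc16a1. The members and lists were chosen with earlier results of these data known.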

Additional observations from a re-analysis of the deposited data

Results flagged for a closer look

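In 7 of 102 gene-and-group combinations of 5 libraries, 1 library lay far from the rest of its group (its gap to the nearest library over 0.71 of the group's range). Chance gives about 1 in 20. In library 4 labelled IL6 shRNA1, Egln1 stood at 154 CPM where the other 4 had 230 to 234 CPM. In the same library Car12 stood at 93.6 CPM beside 142 to 167 CPM, and Slc16a1 at 79.2 CPM beside 103 to 109 CPM. Epas1, which encodes HIF-2alpha, was high in library 5 labelled IL6 shRNA1, at 49.0 CPM beside 23.1 to 26.3 CPM. In control library 5, Eno2 stood at 87.0 CPM beside 68.8 to 71.9 CPM. In control library 1, Gapdh stood at 2877 CPM beside 3228 to 3368 CPM. In control library 4, Gpi1 stood at 770 CPM beside 643 to 673 CPM.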

How the results depend on the processing

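The number of members called lower, 3, was 5 with column totals, DESeq2 or either FPKM fit, 1 without the 3 farthest libraries, 0 with the leukocyte score, and 3 to 5 with each library left out in turn. The number called higher, 0, was 2 with DESeq2 and 0 to 2 with a library left out. Of all genes, 1775 were called, 3027 by DESeq2, 381 at an adjusted p under 0.01, 212 without the 3 farthest libraries, 59 with the leukocyte score, 545 with the muscle score, 1076 relative to the own chromosome, and 864 to 2774 with a library left out. The difference in the level of chromosome 6 kept its sign in each alternative run for it (-0.23 to -0.20). With a library left out its exact permutation p stayed at 0.0079. As the groups were fully apart, such an omission could hardly change that p. The sample numbers did not pair the libraries: same-numbered libraries correlated at -0.28, -0.07, 0.11, 0.27 and -0.27, and only number 3 matched its own best. With the number as a replicate block 755 genes were called, 4 members among them, all lower, with Kdm3a added (-0.50, adjusted p = 0.0463). In the wider list Plod2, Insig2, Fam162a and Vhl were not called under the block.

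Uncalled members changed sign in some fits. Relative to the own chromosome, Hk2 was at 0.15, Gapdh at 0.038, Eno1 at 0.00081 and Ldha at 0.010. With no filter on low counts Eno1 was at 0.0024. Without the 3 farthest libraries Pfkp was at -0.088, Eno1 at 0.053, Slc2a1 at -0.13, Bnip3 at 0.047, Ddit4 at 0.042 and Epas1 at -0.041. With the leukocyte score Pfkp was at -0.072, Eno1 at 0.10, Slc2a1 at -0.016, Pfkfb4 at -0.061, Bnip3 at 0.22, Ddit4 at 0.12, P4ha1 at 0.11, Hif1a at 0.066, Epas1 at -0.060, Arnt at 0.062 and Il6 at -0.68. With the muscle score Pfkp was at -0.052, Eno1 at 0.051, Slc2a1 at -0.14 and Bnip3 at 0.064. With a library left out, Hk2 ranged from -0.26 to 0.066, Pfkp from -0.0056 to 0.098, Eno1 from -0.034 to 0.027, Ldha from -0.065 to 0.0051, Slc2a1 from -0.030 to 0.29, Bnip3 from -0.16 to 0.065, Egln1 from -0.14 to 0.0072, Ankrd37 from -0.084 to 0.31 and Epas1 from -0.0045 to 0.35. The cause of these changes was not tested. With 5 libraries a group the counts leave wide intervals for the more variable members: that of Ndrg1 ran from -0.31 to 0.95 on the log2 scale.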
